A study of Mus musculus with 6 samples.

Results

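Ldha, Ldhb and Ldhc encode the lactate dehydrogenase subunits of mouse testis, and each was read by 1 probe of the array. They were taken by gene symbol in the platform annotation, which gave 3 probes of 23473 and 3 genes of 16390 with a symbol, and 0 further probes carried an older name of these genes. RNA came from testis of C57/BL6 mice, in 3 groups of 2 arrays. The MVH group is RNA precipitated with an antibody against MVH, the germ cell RNA helicase also called DDX4. The IgG group is RNA precipitated from the same kind of lysate with normal rabbit IgG from another supplier, and the WCE group is total RNA obtained without antibody, called total RNA here. All lysates came from dispersed cells of a pair of testes, per the protocols in the labels, so every cell type of the testis could contribute. Neither the age of the mice nor whether arrays 1 and 2 of a group came from different animals is given in the sources used here, so p-values measure the spread between arrays, which may be technical.

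Lactate dehydrogenase converts pyruvate to lactate while turning NADH back to NAD+, and runs the reverse reaction when lactate is the fuel. The enzyme is a tetramer. The subunit encoded by Ldha is known as the muscle type and that of Ldhb as the heart type, and both are made in many somatic tissues. Ldhc encodes the testis subunit, which germ cells make from the pachytene stage of meiosis onward and which sperm need for motility and male fertility in mice. Sertoli cells release lactate, which meiotic and later germ cells take up as fuel. In RefSeq's gene table for GRCm38.p6, a mouse genome assembly, Ldha and Ldhc are neighbours on the same chromosome with 0 annotated genes between them, and Ldhb lies on another chromosome. The same table lists 3 pseudogenes of Ldha, 1 of Ldhb and 0 of Ldhc. Probe sequences were not used here, so hybridisation of a probe with a related transcript was not tested.

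The arrays listed 22090 to 22965 probes each and left 508 to 1383 blank. IgG array 2 stood apart, with the most blanks and a deposited median intensity of 20.8 against 30.0 on the other arrays. Each array was therefore centred on its median, and levels are given as scaled intensity with the array median set to 30. Of 10 spermatid markers, 9 read above the array median on average and 1, Crem, below it. Their summed scaled intensity was 224723 to 318756 per array, most of it from Tnp1, Prm1 and Prm2, and 163678 to 237589 without Tnp1, the brightest. Tnp1 and Prm2 shared the same reading on each total RNA array, the highest of that array (74564.4 and 77409.9). Differences in these sums may therefore be hidden. RNA was amplified before labelling, so the amount of RNA that each precipitate yielded was not measured and every difference is relative to the array median. In bulk samples such as these, fewer cells of a type and less RNA per cell cannot be told apart.

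Ldha stood higher with MVH than with IgG. Its scaled intensity was 4889.7 and 5354 in the MVH precipitates, 1239 and 545 in the IgG precipitates, and 1896 and 2587.5 in total RNA. The groups did not overlap, and total RNA lay between the precipitates. The geometric means were 5117, 822 and 2215. The 2 IgG arrays were 2.27-fold apart, whereas the MVH arrays were 1.09-fold apart. Between the precipitates Ldha differed 6.23-fold, or 2.64 ± 0.40 on the log2 scale (limma adjusted p = 0.0172, 2 arrays per group). The value after ± is limma's SE, with the spread pooled over all 6 arrays. The 95% interval of Ldha ran from 1.74 to 3.54, and 20 of the 21574 probes tested had a larger rise. Over all probes, limma called 3.82% of the probes higher with MVH than with IgG and 4.15% lower. The difference was 3.23 without IgG array 1 (adjusted p = 0.0167) and 2.05 without IgG array 2 (adjusted p = 0.0330). The call was lost without MVH array 1 (2.70, adjusted p = 0.0651), MVH array 2 (2.57, 0.103) or either total RNA array (2.64, 0.0533).

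Ldhb, the other somatic subunit, ran the opposite way. Its scaled intensity was 1656 and 1996 in the MVH precipitates, 5841 and 4891 in the IgG precipitates, and 1645.5 and 2308 in total RNA. Both IgG arrays lay above every other array, and the MVH values fell within the range of total RNA. Relative to IgG the MVH precipitate was 2.94-fold lower, a log2 difference of -1.56 ± 0.30 (limma adjusted p = 0.0235) with a 95% interval of -2.23 to -0.89. The call was lost without centring, where the difference was -1.29 (adjusted p = 0.0977). It was kept without IgG array 2 (-1.68, adjusted p = 0.0392). It was lost without IgG array 1 (-1.43, adjusted p = 0.0581), MVH array 1 (-1.42, 0.108), MVH array 2 (-1.69, 0.107) or either total RNA array (-1.56, 0.0556).

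For Ldhc, the germ cell subunit, no difference between the groups was measured beyond the spread of the arrays, with a probe so bright that a difference could be hidden. Its scaled intensity was 41887 and 50612 in the MVH precipitates, 40786 and 41255 in the IgG precipitates, and 34062 and 45483 in total RNA. The MVH and IgG arrays did not overlap, but the nearest of them were only 1.02-fold apart, and the range of the total RNA arrays took in both IgG arrays and 1 of the MVH arrays. The log2 difference between MVH and IgG was 0.17 ± 0.28 (limma adjusted p = 0.767), with a 95% interval of -0.47 to 0.81, which is 0.72-fold to 1.75-fold. The interval holds for the probe's reading and covers no compression of bright signal. The Ldhc probe was among the brightest, with only 15 to 35 probes brighter on any array. Even so it read below each array's highest deposited intensity, which was 67580 to 83665. Saturation of bright probes can compress a difference. On each total RNA array Tnp1 and Prm2 shared the same reading, the highest of that array (74564.4 and 77409.9). Whether this was a ceiling, and whether the lower readings of Ldhc were compressed, was not tested. A mean at or above that of Ldhc was found for 22 tested probes, itself included. Limma called 0 of these in either direction between MVH and IgG. Over all probes it called 3.82% higher and 4.15% lower, so 0 of 22 is not far from that share. The median absolute log2 difference of the 22 was 0.19, against 0.40 over all probes tested, and the reason was not tested.

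**Figure D1:**
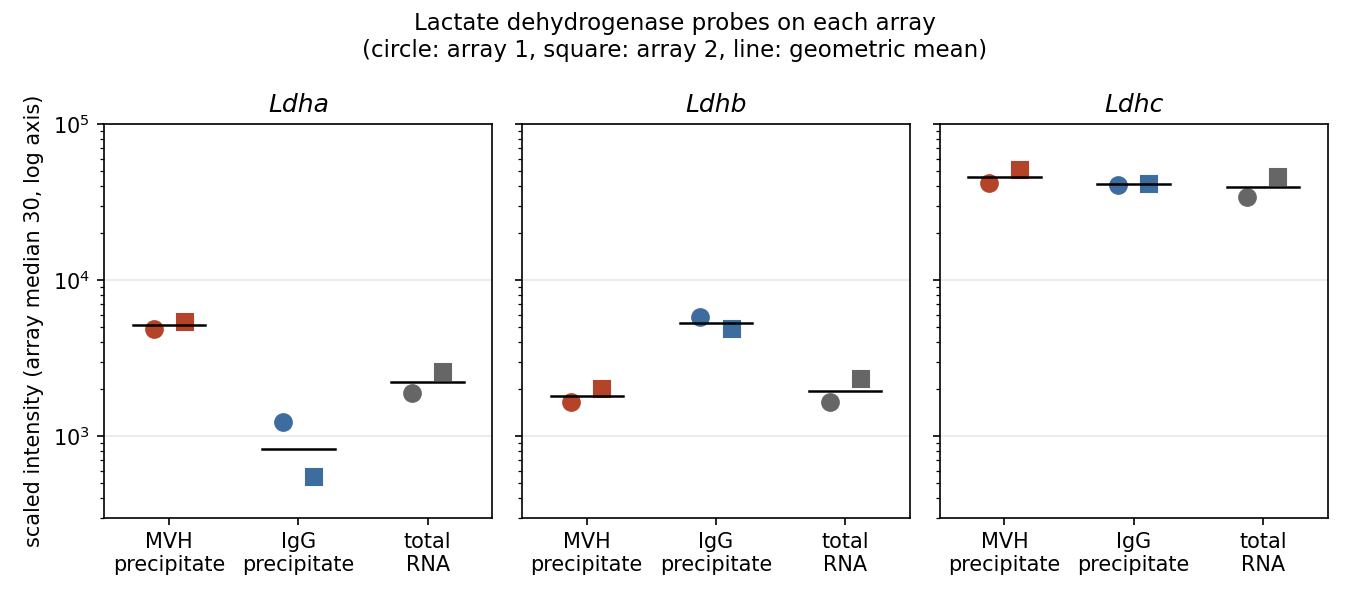
Scaled intensity (log axis, array median set to 30) of the Ldha, Ldhb and Ldhc probes on each of the 6 arrays, by group; circles are array 1, squares array 2, and lines geometric means of 2 arrays. Ldha is high with MVH (4889.7 and 5354) and low with IgG (1239 and 545), Ldhb is high with IgG alone (5841 and 4891), and Ldhc lies between 34062 and 50612 on every array.

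When each precipitate was set against the starting abundance in total RNA, 0 of the 3 genes passed the threshold with MVH or with IgG by limma. Few probes did at all: 0.0138% of 21793 for MVH and 0.00934% of 21413 for IgG. With MVH, Ldha was 2.31-fold above its level in total RNA, a log2 difference of 1.21 ± 0.40 with a 95% interval of 0.31 to 2.11 (limma adjusted p = 0.401). It was the only one of the 3 genes with an unadjusted limma p under 0.05 in this comparison (0.0144). Over all probes tested, 1947 of 21793 had one. Ldhb differed by -0.10 ± 0.30 (adjusted p = 0.988) with an interval of -0.77 to 0.57, and its sign turned without MVH array 1 (0.03) or total RNA array 2 (0.14). Ldhc differed by 0.23 ± 0.28 (adjusted p = 0.934), with an interval of -0.42 to 0.87.

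Both IgG arrays read below both total RNA arrays for Ldha and above them for Ldhb, and neither difference passed after adjustment. Unadjusted limma p-values were under 0.05 for 3900 of the 21413 probes tested here. Ldha was 2.69-fold lower with IgG, a log2 difference of -1.43 ± 0.40 (limma adjusted p = 0.116; 0.00601 unadjusted). Without IgG array 2 this was -0.84 (adjusted p = 0.244) and without IgG array 1 it was -2.02 (adjusted p = 0.0572). Ldhb was 2.74-fold higher with IgG, a log2 difference of 1.46 ± 0.30 (limma adjusted p = 0.0662; 0.000874 unadjusted). It ranged from 1.33 to 1.58 when either IgG array was left out. Ldhc differed by 0.06 ± 0.28 (adjusted p = 0.933), with an interval of -0.58 to 0.70. These comparisons share arrays with the comparison of the precipitates and are not independent of it. For Ldhb the gap between the precipitates was therefore close in size to the gap between IgG and total RNA, 1.56 and 1.46 on the log2 scale. For Ldha the 2.64 between the precipitates was made up of 1.21 above total RNA with MVH and 1.43 below it with IgG.

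**Figure D2:**
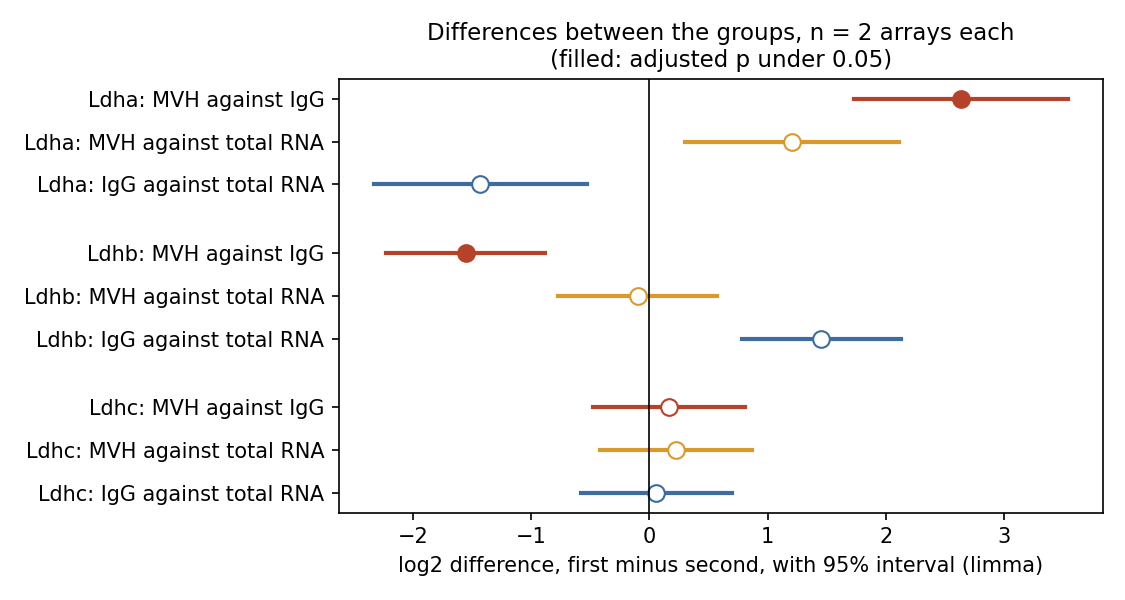
Log2 difference of each gene between each pair of groups (x axis, first group minus second), with its 95% interval from limma, n = 2 arrays per group; filled points have an adjusted p under 0.05. Ldha (2.64) and Ldhb (-1.56) pass between MVH and IgG and lie on opposite sides of 0, while the 3 intervals of Ldhc all include 0.

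The somatic and germ cell subunits were then contrasted within each array, where a ratio of probes depends on no centring. Ratios of different probes carry the brightness of each probe, so they are given relative to their mean in total RNA, on the log2 scale. Ldhc over Ldha was -1.05 and -0.91 in the MVH precipitates, 0.89 and 2.09 in the IgG precipitates, and 0.02 and -0.02 in total RNA. The ratio of the germ cell form to Ldha was thus below that of total RNA on both MVH arrays and above it on both IgG arrays. Between the precipitates the Ldhc over Ldha ratio read 5.55-fold lower with MVH (log2 -2.47), close to the 6.23-fold difference of Ldha alone. If the Ldhc probe was compressed, this ratio and that of Ldhc over Ldhb mirror the somatic gene, and their size is uncertain. Ldhb over Ldha, the ratio of the somatic forms, was -1.38 and -1.24 on the MVH arrays, 2.42 and 3.35 on the IgG arrays, and -0.02 and 0.02 for total RNA. It was 18.3-fold lower with MVH than with IgG (log2 -4.19), the widest of the 3 ratios. Ldhc over Ldhb was 0.32 and 0.33 on the MVH arrays, -1.53 and -1.26 on the IgG arrays, and 0.04 and -0.04 for total RNA, a 3.30-fold difference between the precipitates (log2 1.72). In each of the 9 comparisons of a ratio between groups the arrays did not overlap. The ratios share the same few probes and arrays, so the 9 are not separate results. How often ratios of other probes separate the groups was not counted. A two-sided exact permutation test of 2 against 2 arrays cannot go below 0.333, and each of the 9 gave 0.333 (0.333 after Benjamini-Hochberg adjustment). The arrays of total RNA had an SD of 0.02 to 0.05 in these ratios and those of the IgG precipitate one of 0.19 to 0.85.

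**Figure D3:**
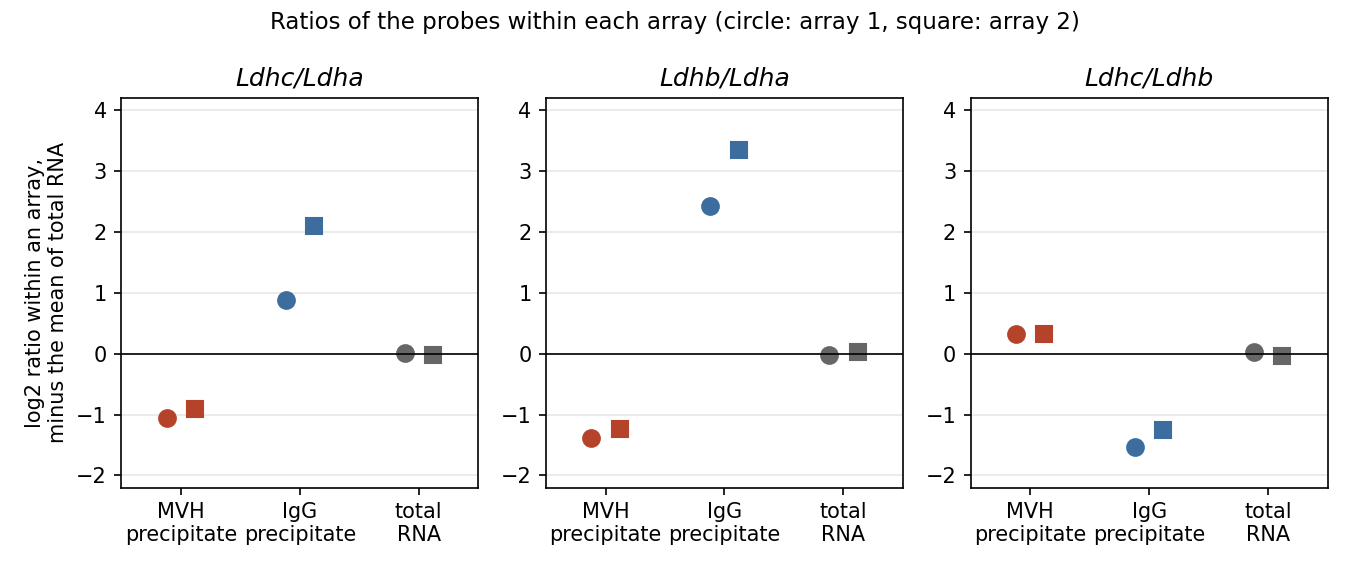
Log2 ratio of each pair of lactate dehydrogenase probes within an array (y axis), minus the mean of the total RNA arrays, for the 6 arrays; circles are array 1 and squares array 2. Both MVH arrays lie below total RNA for Ldhc/Ldha (-1.05 and -0.91) and Ldhb/Ldha (-1.38 and -1.24), and both IgG arrays lie above it.

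Other enzymes with a somatic form and a form made in germ cells gave a background for Ldhc and Ldha. Of 10 such pairs listed, both members were tested in 7. For Aldoart1, Gykl1 and Slc25a31 no probe was matched. The germ cell form was the more positive of the pair between MVH and IgG in 5 of the 7 and the somatic form in 2, with a median difference of 0.16, where Ldhc minus Ldha was -2.47. Without the pairs of Gapdh and Pdha1, whose dim probes leave their differences poorly measured, these counts were 3 and 2 of 5 pairs, also with a median of 0.16. This subset was chosen after its values were seen. The phosphoglycerate kinases ran in the direction opposite to Ldhc and Ldha. Pgk2, the form of meiotic and later germ cells, was higher with MVH (2.13, limma adjusted p = 0.0177), and the somatic Pgk1 differed by -0.11 (adjusted p = 0.859). Ldhc minus Ldhb, not among these pairs, was 1.72, in the same direction as Pgk2 minus Pgk1 (2.24). Among the other pairs no member passed. For the pyruvate dehydrogenase subunits, Pdha2 differed by -0.17 and Pdha1, whose probe was dim, by -0.88. The sperm glyceraldehyde phosphate dehydrogenase gene Gapdhs differed by 0.93 and Gapdh, also dim, by 0.80. Eno1, a somatic enolase gene, differed by 0.86 against 0.26 for Eno4. Got1l1 and Got1 were at -0.05 and -0.22, the cytochrome c genes Cyct and Cycs at -0.25 and -0.69, and the cytochrome oxidase genes Cox6b2 and Cox6b1 at -0.92 and -0.51. Ldha was the only somatic form among these 8 pairs that passed. The somatic Ldhb, which passed as lower with MVH, was not in a pair.

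**Figure D4:**
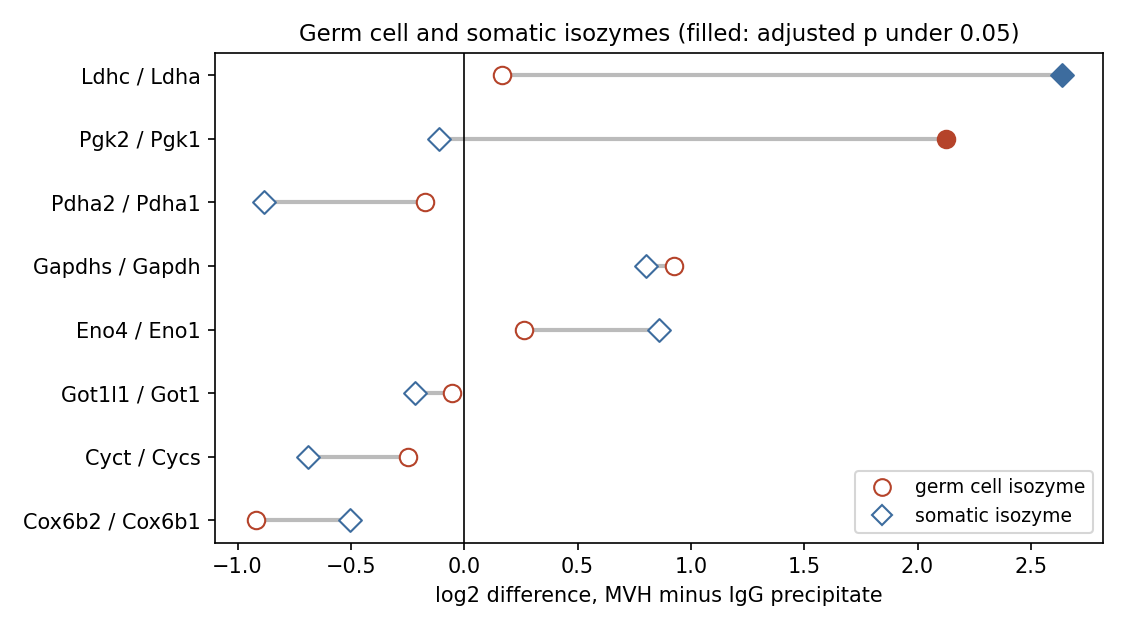
Log2 difference between the MVH and IgG precipitates (x axis, n = 2 arrays each) for the germ cell form (circles) and the somatic form (diamonds) of 8 enzyme pairs; filled symbols have a limma adjusted p under 0.05. In the Ldhc and Ldha pair the somatic form is the one that passes (2.64 against 0.17), in the Pgk2 and Pgk1 pair the germ cell form (2.13 against -0.11).

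Genes that act next to lactate dehydrogenase were followed in lists of lactate and pyruvate transport, pyruvate fates, glycolysis and the NADH shuttles, together with relatives of the enzyme and the isozyme pairs. Of 71 such genes 64 had a probe and 63 were tested between MVH and IgG. Of these, 6 were higher (9.52%) and 4 lower (6.35%), against 4.16% and 4.24% of all named genes with 1 probe each. Their median log2 difference was -0.05, against 0.08 over all named genes. The lists were chosen with earlier results of these data known, so these shares are descriptive only. The relatives Ldhd, for the mitochondrial D-lactate dehydrogenase, and Uevld did not pass (-0.29 and 0.15).

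Of 8 transport genes, 1 was higher and 0 lower, with a median of 0.51. Slc16a7, which encodes the monocarboxylate carrier MCT2, was 3.60-fold higher with MVH (a log2 difference of 1.85 ± 0.39; limma adjusted p = 0.0300). The MVH arrays read 2007 and 3263 in scaled intensity, the IgG arrays 505 and 1001, and those of total RNA 1452 and 1567. Like Ldha, it had total RNA between the precipitates. The carrier genes Slc16a1 (MCT1) and Slc16a3 (MCT4) differed by 0.12 and -0.55, and Bsg, for the basigin chaperone of such carriers, by 0.48. Emb, a related chaperone gene, differed by 1.56 with a dim probe (adjusted p = 0.108), and the mitochondrial pyruvate carrier genes Mpc1 and Mpc2 by 0.54 and 0.58. None of these passed.

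Of 15 genes tested for the fates of pyruvate, 1 was higher and 1 lower, with a median of -0.12. Dld, for the E3 subunit that the pyruvate dehydrogenase complex shares with other complexes, was higher by 2.32 (limma adjusted p = 0.0358), at 120 and 350 with MVH against 61.2 and 27.5 with IgG. Pdk3, for a kinase that switches pyruvate dehydrogenase off, differed by -1.05 (adjusted p = 0.0484). The complex's other subunits Pdhb, Dlat and Pdhx were at 0.21, -0.38 and 0.64 and did not pass.

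In glycolysis 3 of 23 genes were higher and 2 lower, with a median of 0.25. Hk1, a hexokinase gene, was higher by 2.99 (limma adjusted p = 0.0172), at 1942 and 811 with MVH against 141 and 176 with IgG. The triose phosphate isomerase gene Tpi1 was higher by 1.49 (adjusted p = 0.0222), and Pgk2 was the remaining one. Pgam1, a phosphoglycerate mutase gene, was lower by 2.11 on the log2 scale (adjusted p = 0.0161), where the MVH arrays read 947 and 770.1, the IgG arrays 3960.1 and 3415, and those of total RNA 1209.6 and 1363.5. Like Ldhb, its IgG arrays lay above all others. Pfkl, the liver phosphofructokinase gene, differed by -1.53 (adjusted p = 0.0462). Pkm, for the pyruvate kinase that supplies lactate dehydrogenase with pyruvate, differed by 2.05 ± 0.62 and did not pass (adjusted p = 0.0770).

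The NADH shuttles reoxidise cytosolic NADH, as lactate dehydrogenase does. Of 9 shuttle genes 1 was higher, Gpd2, for the mitochondrial glycerol phosphate dehydrogenase (2.68, limma adjusted p = 0.0225), and 1 lower, Mdh1, for the cytosolic malate dehydrogenase (-1.32, adjusted p = 0.0394). The median was -0.33. All 10 calls among the genes around lactate dehydrogenase were lost without MVH array 2 or either total RNA array, and all but that of Pgam1 without MVH array 1. Without IgG array 1 those of Slc16a7, Tpi1, Pdk3, Pfkl and Mdh1 were lost, and without IgG array 2 those of Dld and Pdk3. With no centring those of Pdk3, Pfkl and Mdh1 were lost, that of Pdk3 also with quantile normalization or centring on the 75th percentile, and all 10 when only the 4 arrays compared were fitted. Against total RNA 0 of these genes passed for either precipitate by limma. The largest differences there, not past the threshold, included Emb (1.89), Dld (1.32) and Gpd2 (1.21) with MVH, and Hk1 (-2.00), Pfkl (1.65) and Pgam1 (1.52) with IgG.

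**Figure D5:**
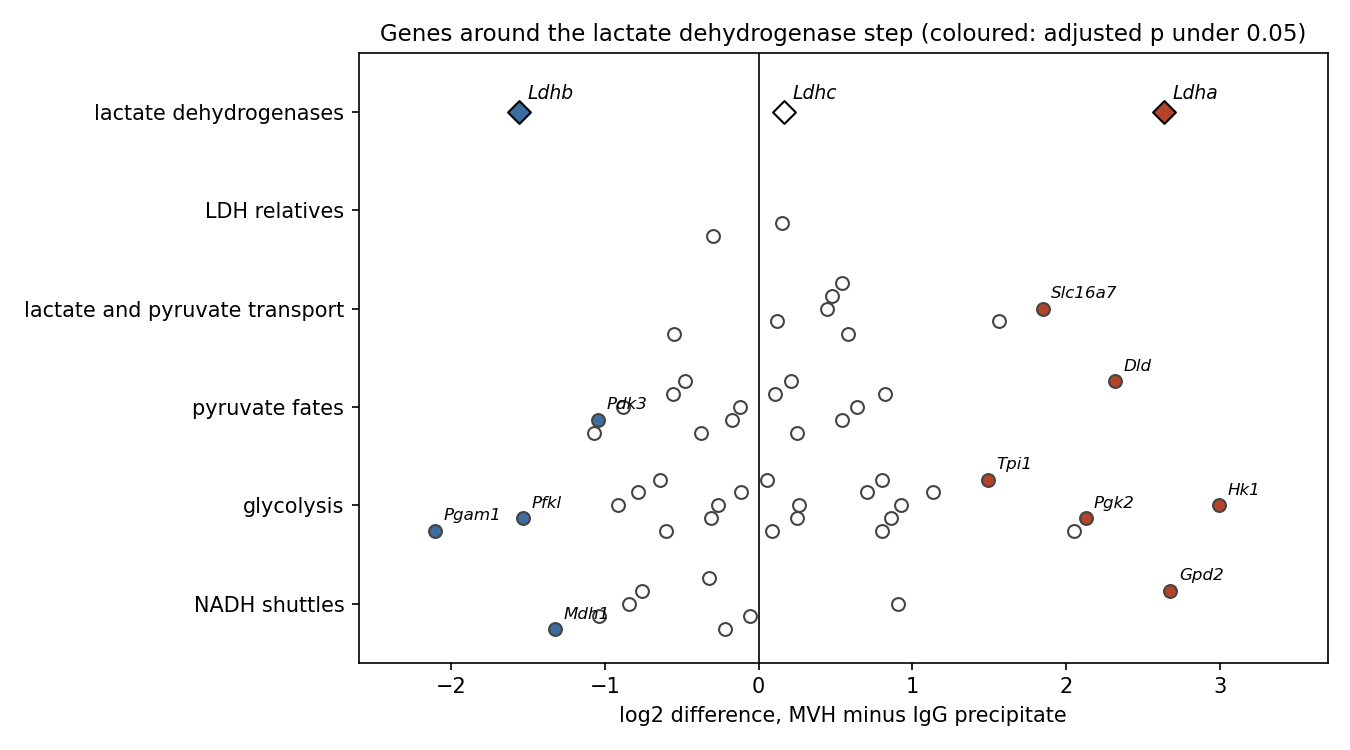
Log2 difference between the MVH and IgG precipitates (x axis, n = 2 arrays each) for the lactate dehydrogenases (diamonds) and for 5 lists of genes around them (circles, spread vertically for legibility); coloured symbols have a limma adjusted p under 0.05, red higher and blue lower with MVH. Ldha (2.64) lies beside Hk1 (2.99) and Gpd2 (2.68), and Ldhb (-1.56) beside Pfkl (-1.53).

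Markers of some testis cell types differed between the precipitates as well, to be read against the 4.16% of all named genes called higher with MVH than with IgG and the 4.24% called lower. Of 6 Leydig cell markers tested, 5 were lower with MVH than with IgG and 0 higher. Their summed scaled intensity was 532.8 to 568 with MVH, 2013 to 3152 with IgG and 704 to 1177 in total RNA, so that, as for Ldhb, the IgG arrays lay above all others. Without Cyp17a1, the brightest of them, the sums were 356 to 428, 1225 to 2007 and 384.5 to 615.5. Peritubular and vascular markers had 2 of 5 lower and 0 higher, with sums of 354 to 553, 1471 to 3165 and 418 to 514, most of them from Acta2. Without it they were 51.1 to 59.2, 82.9 to 128 and 47.9 to 51.2. Meiotic prophase markers had 2 of 8 higher, Sycp3 and Syce1, and 0 lower. Their sums were 27631 to 29854 with MVH, 13217 to 16202 with IgG and 27237 to 32487 in total RNA, so that the IgG arrays lay lowest, as for Ldha. Most of this sum was Mael, which did not pass (0.93, limma adjusted p = 0.0743). Without Mael the sums were 4379.8 to 6844 with MVH, 2449 to 2452 with IgG and 2983 to 3732 in total RNA. Spermatid markers had 0 of 10 past the threshold, Sertoli cell markers 0 of 9 and macrophage and blood markers 0 of 4, by limma. Many of these probes were dim, which leaves their differences poorly measured. Below the array median on average were 5 of 9 Sertoli, 3 of 4 macrophage and blood, and 6 of 7 peritubular and vascular markers. Spermatogonial markers had 1 of 6 lower. Sertoli sums were 3583 to 3705 with MVH, 5694 to 6424 with IgG and 4824 to 5114 in total RNA, and 305.5 to 337.5, 430.1 to 516 and 408 to 437 without Clu, which carried them. Spermatogonial sums were 1004 to 1404, 1675 to 1952.5 and 1163 to 1333, and macrophage and blood sums stayed between 65.9 and 89.3 on every array. No marker was listed at 0, and Kit, Pecam1 and Cdh5 were each blank on 1 IgG array. The part of any cell type in the differences of Ldha and Ldhb was not tested.

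The genes whose log2 values over the 6 arrays correlated best with each lactate dehydrogenase were taken from 7940 named probes at or above the median level. For Ldha these were Ccdc181, Memo1, Esyt3 and Pon2, with r of 0.995 to 0.999. Their log2 differences between the precipitates were 1.19, 1.52, 0.79 and 1.19 in that order, and those of Ccdc181, Memo1 and Pon2 passed (limma adjusted p = 0.0397, 0.0316 and 0.0446) while that of Esyt3 did not (0.111). For Ldhb they were Cdc42se1, Gtf2f1, L3mbtl2 and Rad21, with r of 0.996 to 0.998 and differences of -1.68 to -0.46, of which that of Cdc42se1 passed (-1.68, limma adjusted p = 0.0202). For Ldhc they were Gsdmd, Zfp821, Snapin and Cep128, with r of 0.962 to 0.981 and differences of 0.14 to 0.36, none past the threshold. A correlation of at least 0.9 was reached by 476 probes for Ldha, 637 for Ldhb and 27 for Ldhc. With 6 arrays in 3 groups many probes reached such values for Ldha and Ldhb, and far fewer for Ldhc. How many do so for other genes was not counted. The correlations describe a shared pattern over these arrays only. The genes were picked for following each lactate dehydrogenase on these same arrays. Their differences and limma calls between the precipitates therefore follow from the choice and are no separate result.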

How the data were processed

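Per the labels' protocols, each array took 1 sample, as amplified aminoallyl RNA carrying Cy5; protocol text there on other samples was not used. The deposited values are linear intensity per probe. How the authors scanned, background-corrected and scaled them, and which cells they left blank, is not given in the sources used here. Probes were named from the platform annotation, with 3947 symbols updated through RefSeq synonyms. Intensities were converted to log2 and centred on each array's median. All 6 arrays were fitted with limma 3.58.1 (R 4.3.3; 3 residual and 5.77 prior degrees of freedom), with Benjamini-Hochberg adjustment over all probes tested in a contrast and a threshold of 0.05. A contrast needed a value on all 4 of its arrays. The fit was also run on simulated arrays with independent noise and changes in MVH alone. That setting leaves out the shift of the IgG arrays, so it does not test how they were handled. Lists used each gene's probe with the highest mean. Text names the lactate dehydrogenases, the isozyme pairs, list members past the threshold and the largest others, and the 4 genes most correlated with each. Genes and lists were chosen with earlier results of these data known. The number of arrays limits the precision.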

Additional observations from a re-analysis of the deposited data

How the results depend on the processing

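The difference of Ldha between MVH and IgG kept its sign under all 16 alternatives (2.05 to 3.23) and passed under 11, that of Ldhb kept its sign under 16 (-1.69 to -1.29) and passed under 9, and that of Ldhc passed under 0 (0.03 to 0.43). Alternatives that change only the spread or the probes tested leave these differences as they were, so the signs could not turn there. Fitting only the 4 arrays compared lost both calls, Ldha at 2.64 (limma adjusted p = 0.0533) and Ldhb at -1.56 (0.0556). It left 0 probes and 0 listed genes called, and the spread then rests on fewer arrays. For MVH against IgG, leaving out either total RNA array repeats this fit and is not a separate loss. With no centring Ldhb was -1.29 (0.0977), 121 probes and 1 listed gene were lower, and the median over all probes tested moved from 0.07 to 0.34. More listed genes were called between MVH and IgG with 5 added before log2, called an offset below (11 higher, 8 lower; 1468 and 1488 of all probes), a variance trend (10 and 8; 1507 and 1636) or without the dimmest 25% of probes (11 and 8; 1492 and 1624).

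Between IgG and total RNA, Ldha passed with an offset (-1.47, adjusted p = 0.0489), a variance trend (-1.43, 0.0305) and without the dimmest probes (-1.43, 0.0366). Ldhb passed with an offset (1.41, 0.0187), a variance trend (1.46, 0.00883), without the dimmest probes (1.46, 0.0151), over probes with values on all 6 arrays (1.46, 0.0394) and with quantile normalization (1.54, 0.0493). Ldhc turned to -0.20 with no centring and -0.15 without total RNA array 1. Probes called higher and lower between IgG and total RNA numbered 671 and 460 with the offset, 798 and 455 under a variance trend, 773 and 410 without the dimmest, 344 and 125 over probes with values on all arrays, 112 and 29 with quantile normalization, 150 and 61 with the 75th percentile and 80 and 19 with 1 probe per gene, while the higher ones were 5 with no centring and 1 with the 4 arrays alone. Listed genes called there were 3 and 5 with the offset, 4 and 4 under a variance trend, 4 and 3 without the dimmest and 2 and 1 over probes with values on all arrays, and 1 higher with quantile normalization or the 75th percentile. Between MVH and total RNA the probe counts were 61 and 19 with the offset, 132 and 48 under a variance trend, 100 and 23 without the dimmest, 23 and 7 over probes with values on all arrays, 14 and 5 uncentred, 2 and 4 with the 4 arrays alone, 0 and 0 with 1 probe per gene, and 5 higher with the 75th percentile. The cause of these shifts was not tested.

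Leaving out 1 array at a time gave -1.69 to -1.42 for Ldhb and 0.03 to 0.30 for Ldhc between MVH and IgG, 0.98 to 1.43, -0.34 to 0.14 and 0.02 to 0.43 for Ldha, Ldhb and Ldhc between MVH and total RNA, and -2.02 to -0.84, 1.21 to 1.70 and -0.15 to 0.27 between IgG and total RNA. Probes called between MVH and IgG were 0 to 593 higher and 0 to 819 lower, and listed genes 0 to 6 and 0 to 3. Between MVH and total RNA the probes called were 0 to 9 and 0 to 4, and between IgG and total RNA 0 to 46 and 0 to 12. The within-array ratios kept their sign in all alternatives run. Centring, the spread and the choice of probes tested do not enter these ratios. As the arrays did not overlap, leaving out 1 array could not turn a sign either.

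Arrays of a group carry the numbers 1 and 2, and nothing says that a number marks a shared animal or day. Deviations of same-numbered arrays from their group means correlated at 0.10 to 0.16 over 21241 probes. With the replicate block, Ldha differed by 2.64 (adjusted p = 0.0190) and Ldhb by -1.56 (0.0226) between MVH and IgG, so no call on the 3 genes changed; 3 probes were higher and 1 lower between MVH and total RNA, and 123 higher and 27 lower between IgG and total RNA, with 1 listed gene higher.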
